A study of Homo sapiens with 16 samples.

Results

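The genes of the HOXA, HOXB and HOXD clusters were followed across 16 poly-A RNA-seq libraries of HAP1. This human line is near-haploid, grows attached and descends from a chronic myeloid leukaemia. Members were all entries of the count table named as a HOX gene of cluster A, B or D, or as an antisense RNA of these clusters, together with the long noncoding RNAs HOTTIP, HOTAIRM1 and HAGLR. The rule found 40 of 33121 entries, of which 17 lie in HOXA, 12 in HOXB and 11 in HOXD. HAGLR is present under its other name, HOXD-AS1. The libraries form 4 groups of 4. The SLC30A10 knockout carries a deletion of SLC30A10, which encodes a manganese exporter, and has its own control cells. The second knockout carries a deletion at a different gene and likewise has its own control cells. Both control sets have one cell line identifier in common, each deletion line has its own, and the labels give neither the number of clones nor any treatment. All cells were grown in the same serum-containing medium, and the labels do not say whether the 4 libraries of a group came from separate cultures. P-values therefore measure the spread between these libraries, which may be technical.

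HOX genes encode homeodomain transcription factors that give cells along the body axis their positional identity. Within a cluster the genes stand in the order of their use, from the 3′ genes of low number, which are expressed in anterior regions, to the 5′ genes of high number, which are expressed in posterior regions and in limb buds. Polycomb complexes keep silent HOX chromatin repressed, trithorax-type methyltransferases keep active HOX genes on, and retinoic acid and CDX factors are known inducers. Cultured cell lines often keep a stable HOX pattern, and aberrant HOX expression is common in leukaemia.

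Library totals ran from 16058856 to 16648151 counts, so that 3 counts were 0.181 to 0.187 CPM. CPM is the count of a gene per 1000000 counts after edgeR's library scaling. SLC30A10, the deleted gene, was near the detection limit, with 11, 5, 8 and 3 counts in the SLC30A10 knockout and 8, 6, 8 and 9 in its control. Its RNA therefore did not check the label. Of the 40 members, 34 passed the expression filter and were tested. The 6 others were HOXB1, at 0 counts in all 16 libraries, HOXB-AS3, HOXB7 and HOXD1, at 2 counts or fewer in each, HOXD12, at 0 to 5 counts, and HOXB8, at 2 to 11 counts. Of the haematopoietic markers MPO and HBG1 were at 0 in every library, and 1 of the 10 listed, TAL1, was expressed above the filter. The sum of this list was almost all TAL1, at 200 to 1363 counts per library where no other listed marker exceeded 9. It is thus the level of a single gene and no measure of a lineage. The sum was 78.0 to 84.1 CPM in the SLC30A10 knockout and 68.5 to 73.5 in its control. In the second knockout it was 12.7 to 14.3 CPM and in the second control 73.5 to 82.8. The summed mesenchymal markers, led by VIM, CDH2 and FN1, ran from 516.6 to 528.4 CPM in the SLC30A10 knockout and from 909.7 to 959.3 in its control, and from 731.8 to 935.2 in the second knockout and 615.1 to 775.8 in its control. The summed neural markers, led by SOX2, were the highest, at 2255 to 2414 CPM in the SLC30A10 knockout and 2261 to 3136 in its control. They were at 3633 to 4237 CPM in the second knockout and 2986 to 3482 in its control. This sum was mostly SOX2, at 33003 to 66551 counts per library beside 2256 to 3853 of TUBB3 and 162 to 306 of PAX6. In the second knockout SOX2 rose (log2 fold change 0.36 ± 0.07) while TUBB3 (-0.52 ± 0.05) and PAX6 (-0.32 ± 0.09) fell. In the SLC30A10 knockout SOX2 (-0.22 ± 0.07) and TUBB3 (-0.54 ± 0.05) fell while PAX6 rose (0.29 ± 0.09). The epithelial sums were 56.68 to 64.07 CPM in the SLC30A10 knockout and 47.75 to 55.55 in its control. They were 37.04 to 40.38 CPM in the second knockout and 46.58 to 51.52 in its control. The pluripotent sums were 42.26 to 49.5, 35.3 to 43.25, 27.49 to 35.22 and 30.19 to 34.93 CPM in the same order of groups. Genes of a list also moved apart. In the SLC30A10 knockout EPCAM (-2.18 ± 0.34) and LIN28A (-0.87 ± 0.13) fell, while KRT8 (0.36 ± 0.10), KRT18 (0.26 ± 0.06) and POU5F1 (0.56 ± 0.10) rose. The part of these levels in the HOX results was not tested.

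The HOXD genes carried the largest changes, and the stretch upstream of 4 of them is shown because neighbouring genes there went in different directions. The sequences are the 250 bases before the start that the RefSeq promoter table gives for each gene in GRCh38.p14, all on the plus strand of chromosome 2, written 5′ to 3′. Capitals mark matches on either strand to 4 motifs: the E-box, whose letters are CACGTG, the NFY box, read as CCAAT, the TATA box, read as TATAAA, and a composite site of HOX and PBX proteins, read as TGATNNAT. For HOXD13 that start lies inside the wider RefSeq span of the gene, chr2:176087487-176095944, and distances are counted from the table's start. A TATA match that repeats by 2 bases at HOXD13 is the overlap among them.
HOXD13, chr2:176092471-176092720: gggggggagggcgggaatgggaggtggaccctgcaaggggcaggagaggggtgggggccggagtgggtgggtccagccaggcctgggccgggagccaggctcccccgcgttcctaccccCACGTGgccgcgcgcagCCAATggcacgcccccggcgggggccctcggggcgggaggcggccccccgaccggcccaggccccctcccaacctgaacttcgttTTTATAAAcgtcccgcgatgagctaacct
HOXD11, chr2:176107030-176107279: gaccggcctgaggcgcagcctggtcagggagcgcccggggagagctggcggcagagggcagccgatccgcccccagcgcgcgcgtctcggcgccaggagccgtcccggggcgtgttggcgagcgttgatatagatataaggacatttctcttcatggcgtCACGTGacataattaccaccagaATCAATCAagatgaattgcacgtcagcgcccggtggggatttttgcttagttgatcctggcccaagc
HOXD10, chr2:176116528-176116777: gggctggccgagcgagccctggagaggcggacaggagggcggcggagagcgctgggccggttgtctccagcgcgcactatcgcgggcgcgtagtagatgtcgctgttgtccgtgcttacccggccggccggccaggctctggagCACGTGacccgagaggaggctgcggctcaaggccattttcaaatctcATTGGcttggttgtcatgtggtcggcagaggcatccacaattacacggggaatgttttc
HOXD8, chr2:176129455-176129704: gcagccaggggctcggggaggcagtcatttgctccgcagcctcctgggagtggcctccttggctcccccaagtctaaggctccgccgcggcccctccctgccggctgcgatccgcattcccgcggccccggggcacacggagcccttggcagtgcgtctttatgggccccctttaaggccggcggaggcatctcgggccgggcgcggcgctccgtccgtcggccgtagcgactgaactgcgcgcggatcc

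An E-box match stood 131 bases before the table's start of HOXD13, 90 before that of HOXD11 and 106 before that of HOXD10, and none was found in the window of HOXD8. The HOX and PBX motif was found in the HOXD11 window alone among the 4, 67 bases before the start. RefSeq windows were found for 26 of the 40 members. None was found for HOXD9, nor for any protein-coding HOXB gene except HOXB1, so the shares below describe mainly HOXA and HOXD. The windows of HOXA13 and HOTTIP overlap, and a CCAAT site there is counted for both. The E-box letters occurred in 7 of these 26 windows (26.9%) and in 6.49% of the 27305 windows of all genes. CCAAT occurred in 19 (73.1%, against 33.0% of all windows), TATAAA in 4 (15.4%, against 11.1%) and TGATNNAT in 4 (15.4%, against 6.69%). The retinoic acid response element, searched on both strands as a direct repeat spaced by 5 bases, was in 0 of the 26 windows and in 0.0110% of all windows. The windows held 21 CG dinucleotides at HOXD13, 23 at HOXD11, 23 at HOXD10 and 28 at HOXD8, where the median over all windows was 11. A match of letters describes the window only.

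Per exon length, HOXB and HOXD held well expressed and nearly silent genes side by side. HOXD13, the most 5′ gene of its cluster, was the highest HOXD gene in every group, at 26.4 CPM per kilobase in the SLC30A10 knockout, 17.8 in its control, 20.4 in the second knockout and 16.3 in the second control. HOXD12, next to it, was at or below 0.113 CPM per kilobase throughout. HOXD4 followed at 10.2 to 12.7 CPM per kilobase and HOXD8 at 4.03 to 7.72. In HOXB, HOXB2 led with 17.3, 11.3, 14.5 and 15.4 CPM per kilobase in the same order of groups, HOXB4 was at 6.53 to 9.10, and the middle genes HOXB5 and HOXB6 were at 0.202 to 0.585. Posterior HOXB9 and HOXB13 were again expressed, at 3.66 to 6.09 and 5.16 to 5.40. In HOXA no single gene led. HOTAIRM1, HOXA11 and HOXA13 held the first 3 places in the SLC30A10 knockout within 12.4 to 12.9 CPM per kilobase, and their order differed between groups. In summed CPM the cluster totals were 272.8 ± 4.11 (SD, n = 4) for HOXA in the SLC30A10 knockout and 268.4 ± 4.60 in its control, and 260.7 ± 11.6 in the second knockout and 261.8 ± 8.26 in its control.

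**Figure D1:**
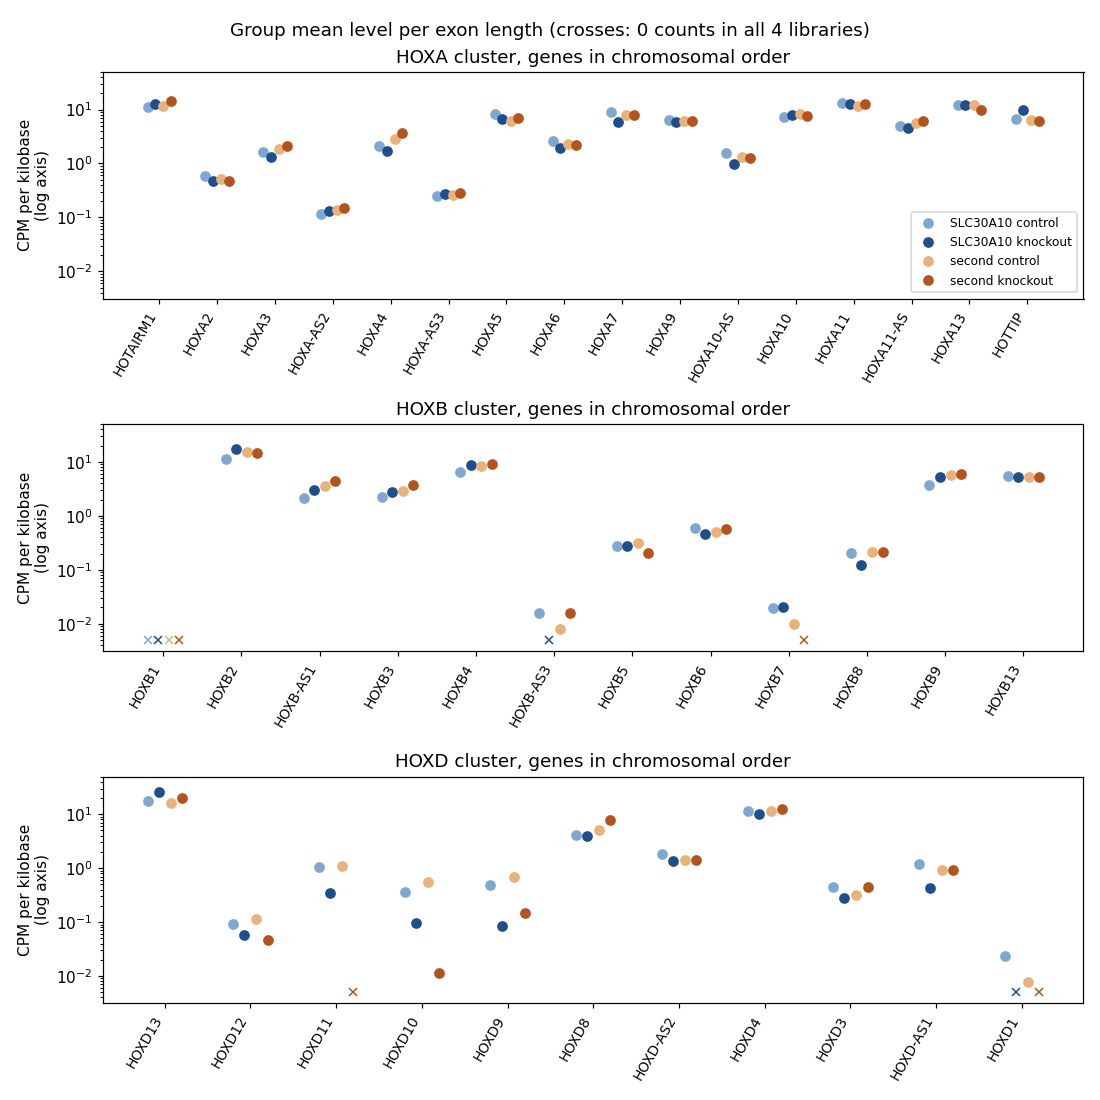
Mean level per exon length of HOXA, HOXB and HOXD members in the 4 groups, in CPM per kilobase on a log axis, with genes in chromosomal order and crosses where all 4 libraries had 0 counts. HOXD13 and HOXB2 lead their clusters in every group, and HOXD11, HOXD10 and HOXD9 lie lower in both knockouts than in the control sets.

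Against its own control, the SLC30A10 knockout changed 16 of the 34 tested members, 7 higher and 9 lower, at an adjusted p under 0.05 (edgeR quasi-likelihood test with Benjamini-Hochberg adjustment over 15569 genes). Of all genes tested 41.4% passed the same threshold, 21.2% higher and 20.2% lower, so the members' share of 47.1% was near the background. The second knockout changed 9 of 34 members, 5 higher and 4 lower (26.5%), where 13.7% of all genes passed, 6.67% higher and 7.03% lower. The member medians were -0.09 and 0.08 on the log2 scale, beside medians over all genes of -0.00 in both comparisons. With a 2-fold change also required, 4 and 3 members passed, beside 4.51% and 2.30% of all genes, and all of these were HOXD genes. The libraries of knockout and control did not overlap for 16 members in the first comparison and 10 in the second, where 38.3% and 16.3% of all tested genes did not overlap.

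HOXD9, HOXD10 and HOXD11 fell in both knockouts, while HOXD13 at the 5′ end of the same cluster rose in both. These 3 neighbours, on chr2:176107280-176124937 in GRCh38.p14, encode posterior HOX proteins that pattern the limb and the lumbosacral axis. HOXD11 had 7, 18, 12 and 11 counts in the SLC30A10 knockout and 35, 34, 34 and 43 in its control. It had 0 counts in all 4 libraries of the second knockout and 48, 32, 35 and 38 in the second control. The groups did not overlap in either experiment, and no HOXD11 RNA was detected in the second knockout, where 0 counts allow a level of up to 0.187 CPM. The log2 fold change was -1.57 ± 0.24 (SE, adjusted p = 1.15e-05) in the SLC30A10 knockout. In the second knockout HOXD11 was at least 12.7-fold lower, taking 3 counts per library as the floor (adjusted p = 1.37e-10).

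HOXD10 counts were 6, 3, 4 and 4 in the SLC30A10 knockout against 12, 22, 9 and 20 in its control, and 0, 0, 1 and 1 in the second knockout against 35, 26, 25 and 14 in its control. Every knockout library lay below every control library of its experiment. The log2 fold change was -1.83 ± 0.41 (adjusted p = 0.000674) in the SLC30A10 knockout, and the fall was at least 8.27-fold in the second (adjusted p = 4.72e-08). HOXD9 had 4, 0, 2 and 4 counts in the SLC30A10 knockout and 17, 21, 5 and 17 in its control. It had 4, 6, 7 and 1 counts in the second knockout and 23, 23, 16 and 22 in the second control. Both pairs of groups were separate, with the closest libraries at 4 and 5 counts in the first experiment. The log2 fold changes of HOXD9 were -2.50 ± 0.50 (adjusted p = 0.000236) and -2.18 ± 0.41 (adjusted p = 0.000363). HOXD11 and HOXD10 share 21.4% and 16.8% of their exon bases with each other, on the same strand, and HOXD9 shares none. At such counts a bulk library cannot tell fewer expressing cells from less RNA per cell.

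As a share of all HOXD counts, HOXD9 to HOXD11 made up 1.28% ± 0.0912 (SD, n = 4) in the SLC30A10 knockout and 4.96% ± 0.902 in its control, and 0.33% ± 0.172 in the second knockout and 6.46% ± 1.51 in its control. The HOXD sum, in which HOXD13 is the most abundant gene, did not fall with them. It was 91.0 ± 3.75 CPM in the SLC30A10 knockout, 82.2 ± 3.25 in its control, 93.3 ± 1.95 in the second knockout and 79.9 ± 3.84 in the second control.

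HOXD13, a regulator of digit and urogenital development, was measured at 58.0, 64.6, 58.9 and 55.2 CPM in the SLC30A10 knockout and at 40.3, 39.0, 39.3 and 40.7 in its control. In the second experiment it was at 46.5, 44.0, 46.2 and 45.7 CPM in the knockout and at 32.1, 37.2, 39.2 and 37.7 in the control. The knockout libraries were above the controls in both cases, with no overlap and with HOXD13 sharing no exon bases with another gene. The log2 fold changes were 0.57 ± 0.06 (adjusted p = 6.70e-09) and 0.32 ± 0.06 (adjusted p = 0.000282).

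HOXD8, on the 3′ side of HOXD9, rose in the second knockout. Its levels were 22.0, 21.3, 18.6 and 19.1 CPM in the second knockout and 12.3, 15.5, 13.8 and 12.6 in its control, a log2 fold change of 0.58 ± 0.09 (adjusted p = 5.49e-05). In the SLC30A10 knockout they were 9.07, 10.4, 12.2 and 10.7 CPM, overlapping the 9.69, 10.4, 9.82 and 12.9 CPM of the control (log2 fold change -0.01 ± 0.11, adjusted p = 0.927). The 2 effects on HOXD8 differed, by -0.60 ± 0.14 on the log2 scale (adjusted p = 0.00201).

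At the 3′ end of the cluster HOXD-AS1, a long noncoding RNA antisense to the region between HOXD3 and HOXD1, fell in the SLC30A10 knockout. It was at 1.86, 2.11, 2.51 and 2.24 CPM there and at 6.15, 7.59, 4.88 and 5.97 in the control, a log2 fold change of -1.49 ± 0.15 (adjusted p = 9.95e-09). In the second experiment the knockout, at 5.05, 5.64, 4.06 and 4.48 CPM, overlapped its control, at 4.28, 5.27, 4.52 and 4.80 (0.03 ± 0.14, adjusted p = 0.937). HOXD3 fell in the SLC30A10 knockout from 1.58 ± 0.22 to 1.01 ± 0.153 CPM (SD, n = 4), with -0.65 ± 0.20 on the log2 scale (adjusted p = 0.0121). That call was lost without SLC30A10 knockout replicate 4 (-0.56, adjusted p = 0.0508) and against both control sets pooled (-0.40, adjusted p = 0.0988). HOXD4 shares 80.5% of its exon bases with 1 overlapping model. HOXD3 shares 74.1% with 4 models, among them HOXD-AS1 and HOXD-AS2 on the opposite strand. The labels do not say how such reads were counted, so HOXD3 and HOXD-AS1 may share reads. HOXD4 was not called in either knockout (-0.19 ± 0.09 and 0.16 ± 0.09), nor was HOXD-AS2 (-0.46 ± 0.20 and 0.01 ± 0.20).

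**Figure D2:**
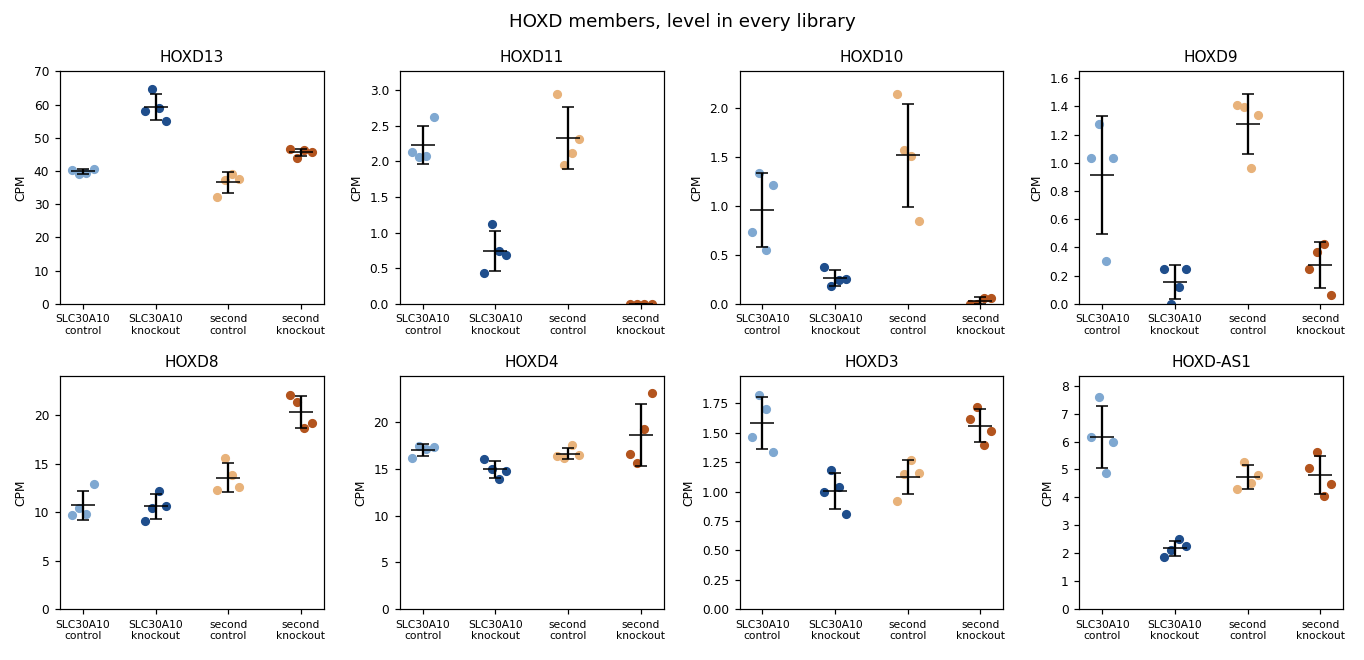
CPM of 8 HOXD members in each library, grouped by control set and knockout, with bars for the mean and SD of 4 libraries. HOXD11, HOXD10 and HOXD9 are lower in both knockouts, and HOXD11 is at 0 in the second knockout only. HOXD13 is higher in both knockouts, HOXD8 is higher in the second knockout and HOXD-AS1 is lower in the SLC30A10 knockout.

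In HOXB 5 of 8 tested genes rose in the SLC30A10 knockout, where 21.2% of all genes rose, and these lie in the 3′ part of the cluster apart from HOXB9. HOXB2, which acts in hindbrain and neural crest development, was at 39.5, 41.5, 42.2 and 38.5 CPM in the knockout and at 25.6, 28.2, 24.7 and 27.4 in its control. The libraries were separate, and the log2 fold change was 0.61 ± 0.07 (adjusted p = 2.00e-08). HOXB4, known for its part in haematopoietic stem cell renewal, was at 31.9, 32.6, 34.0 and 31.1 CPM against 22.2, 25.8, 21.8 and 28.3 (0.40 ± 0.07, adjusted p = 4.93e-05). HOXB3 rose by 0.34 ± 0.08 (adjusted p = 0.00179), HOXB9 by 0.55 ± 0.15 (adjusted p = 0.00331) and HOXB-AS1 by 0.49 ± 0.16 (adjusted p = 0.0121). In all 5 the knockout libraries lay above the control libraries. The HOXB-AS1 call was lost without SLC30A10 control replicate 3 (0.34, adjusted p = 0.0627).

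The size of these HOXB rises depended on which control set was used. Compared with the second control set, the SLC30A10 control had lower HOXB2 (-0.44 ± 0.07), HOXB-AS1 (-0.77 ± 0.15), HOXB3 (-0.37 ± 0.08), HOXB4 (-0.38 ± 0.07) and HOXB9 (-0.67 ± 0.14), each past the threshold. In summed CPM the HOXB cluster was at 132.1 ± 2.07 (SD, n = 4) in the SLC30A10 knockout, 101.6 ± 8.44 in its control, 140.0 ± 7.39 in the second knockout and 130.5 ± 4.68 in the second control. Against both control sets pooled, HOXB2 (0.39, adjusted p = 1.79e-06) and HOXB4 (0.21, adjusted p = 0.00623) were still higher in the SLC30A10 knockout. HOXB3 (0.15, adjusted p = 0.0791), HOXB9 (0.22, adjusted p = 0.155) and HOXB-AS1 (0.11, adjusted p = 0.525) were then not called.

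In the second knockout 1 HOXB gene was called against its own control. HOXB3 was at 27.8, 31.1, 28.9 and 25.6 CPM there and at 20.4, 21.0, 21.5 and 22.3 in the control, with no overlap and a log2 fold change of 0.41 ± 0.08 (adjusted p = 0.000376). HOXB2 was at 29.8, 33.5, 36.9 and 35.1 CPM in that knockout and at 34.1, 38.9, 35.5 and 35.3 in its control, and these overlapped. Against both control sets pooled, the edgeR test also called HOXB-AS1 (0.69, adjusted p = 5.59e-05), HOXB4 (0.29, adjusted p = 0.000501) and HOXB9 (0.40, adjusted p = 0.0101) higher in the second knockout. HOXB3 was then at 0.60 (adjusted p = 1.08e-07). HOXB13, a posterior gene at the far 5′ end, was at 17.9 to 18.7 CPM in all 4 group means and was not called in either comparison (-0.07 ± 0.07 and 0.03 ± 0.07). HOXB8, too low for the fit, had 5, 4, 5 and 2 counts in the SLC30A10 knockout and 7, 8, 5 and 7 in its control (two-sided exact permutation p = 0.0857, smallest possible 0.0286, 15 such tests).

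**Figure D3:**
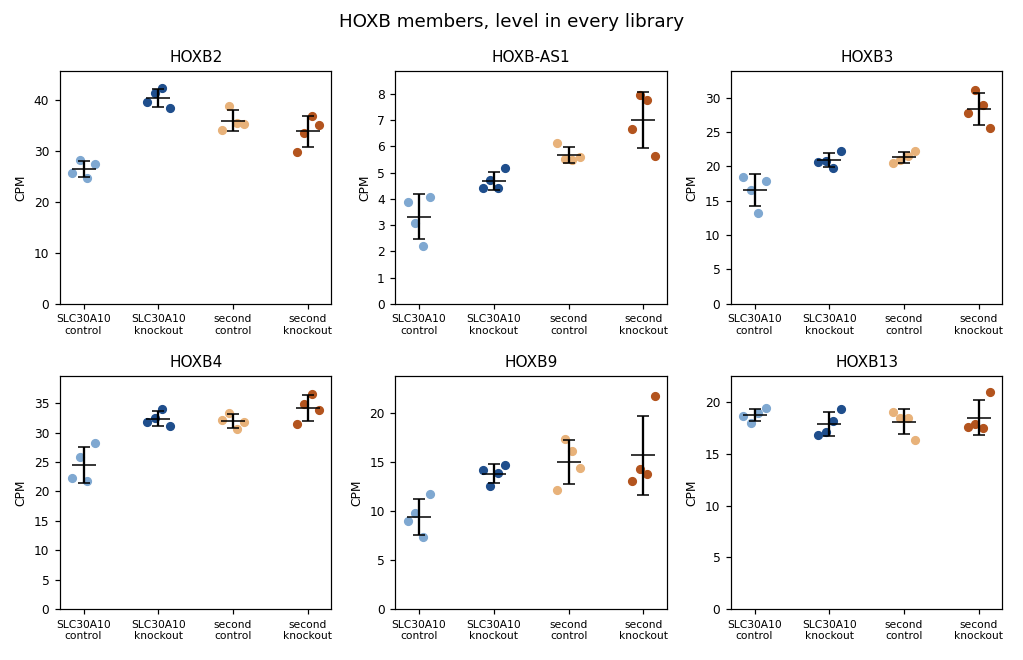
CPM of 6 HOXB members in each library, with bars for the mean and SD of 4 libraries. The SLC30A10 control is the lowest group for HOXB2, HOXB-AS1, HOXB3, HOXB4 and HOXB9, and HOXB13 is level across the 4 groups.

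HOXA had no 2-fold change, and no HOXA member was called in both knockouts. The SLC30A10 knockout had 5 of 17 HOXA members called (29.4%, below the 41.4% of all genes), 1 higher and 4 lower. The second knockout had 3 (17.6%, near the 13.7% of all genes), of which 2 were higher. HOXA7, a homeobox gene of the middle of the cluster, was at 14.5, 14.4, 13.7 and 12.9 CPM in the SLC30A10 knockout and at 22.8, 19.6, 22.99 and 21.9 in its control. The groups were separate, with a log2 fold change of -0.65 ± 0.07 (adjusted p = 1.98e-08). In the second experiment HOXA7 was at 18.9 to 19.9 CPM in the knockout and 17.4 to 20.1 in the control. HOXA7 shares 62.5% of its exon bases with HOXA-AS3 on the opposite strand, so strand-blind counting could mix them.

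HOTTIP, a long noncoding RNA transcribed from the 5′ tip of HOXA and known to bind the WDR5 protein of trithorax-type complexes, was at 51.7, 51.5, 47.4 and 51.2 CPM in the SLC30A10 knockout. Its control was at 37.9, 34.3, 26.5 and 36.5. HOTTIP rose by 0.58 ± 0.08 on the log2 scale (adjusted p = 2.63e-06), and the second knockout, at 27.2 to 35.4 CPM, overlapped its control at 30.2 to 35.1. HOXA13, the protein-coding neighbour of HOTTIP and a distal limb regulator, went another way. It was at 50, 52.7, 45.8 and 50.9 CPM in the second knockout and at 62.9, 63.1, 59.4 and 57.6 in its control, a log2 fold change of -0.29 ± 0.05 (adjusted p = 0.000109), and the groups were separate. In the SLC30A10 knockout, at 61.7, 61.6, 64.3 and 63.8 CPM against 63.3, 61.4, 59.4 and 59.3, it was not called (0.05 ± 0.05).

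HOXA5, which acts in lung and haematopoietic development, fell in the SLC30A10 knockout from 13.9 ± 0.537 to 11.3 ± 0.758 CPM (SD, n = 4; -0.30 ± 0.08, adjusted p = 0.00573). Against both control sets pooled it was not called (-0.09, adjusted p = 0.341), and the SLC30A10 control was higher than the second control (0.41 ± 0.08). HOXA3 (-0.31 ± 0.12, adjusted p = 0.0421) and HOXA10-AS (-0.63 ± 0.19, adjusted p = 0.0104) also fell, but their knockout and control libraries overlapped. The HOXA3 call was lost by the DESeq2 Wald test (adjusted p = 0.0502), in a fit of only the libraries compared (adjusted p = 0.0546) and without any of 6 libraries, with -0.24 (adjusted p = 0.143) without SLC30A10 knockout replicate 2, and the HOXA10-AS call without SLC30A10 control replicate 3 (-0.45, adjusted p = 0.0663).

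In the second knockout HOTAIRM1 rose, a long noncoding RNA of the 3′ part of HOXA that is induced in myeloid differentiation. It was at 24.4, 22.6, 20.9 and 17.6 CPM against 19.6, 17.3, 15.2 and 16.9 (0.31 ± 0.09, adjusted p = 0.0188), with overlapping groups. The HOTAIRM1 call was lost without any of 3 libraries, second knockout replicates 1 and 2 and second control replicate 3, with adjusted p up to 0.0784. In the SLC30A10 experiment HOTAIRM1 was at 19.1, 18.3, 18.9 and 20.9 CPM in the knockout and at 17.5, 16.4, 15.1 and 18.1 in the control. These groups did not overlap, and the log2 fold change of 0.20 ± 0.09 (adjusted p = 0.0760) passed the threshold under 3 alternatives, down to an adjusted p of 0.0325 in a fit of only the libraries compared. The effects of the 2 knockouts on HOTAIRM1 did not differ past the threshold (-0.11 ± 0.13, adjusted p = 0.561). HOTAIRM1 shares 44.9% of its exon bases with other models. Other HOXA members, among them HOXA2, HOXA4, HOXA6, HOXA9, HOXA10 and HOXA11, were not called in either knockout. HOXA11, the first HOXA member per length in the SLC30A10 control, was at 31.4, 28.4, 28.6 and 29.1 CPM in the SLC30A10 knockout and at 28.1, 32.5, 31.6 and 30.9 in its control. It was at 30.6, 29.1, 28.6 and 28.8 CPM in the second knockout and at 26.8, 27.7, 28.0 and 26.5 in the second control, which did not overlap although the difference was not called (0.10 ± 0.06, adjusted p = 0.277). HOXA9, a leukaemia-associated gene, was at 17.8 to 19.2 CPM in the 4 group means and HOXA10 at 27.5 to 30.4.

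**Figure D4:**
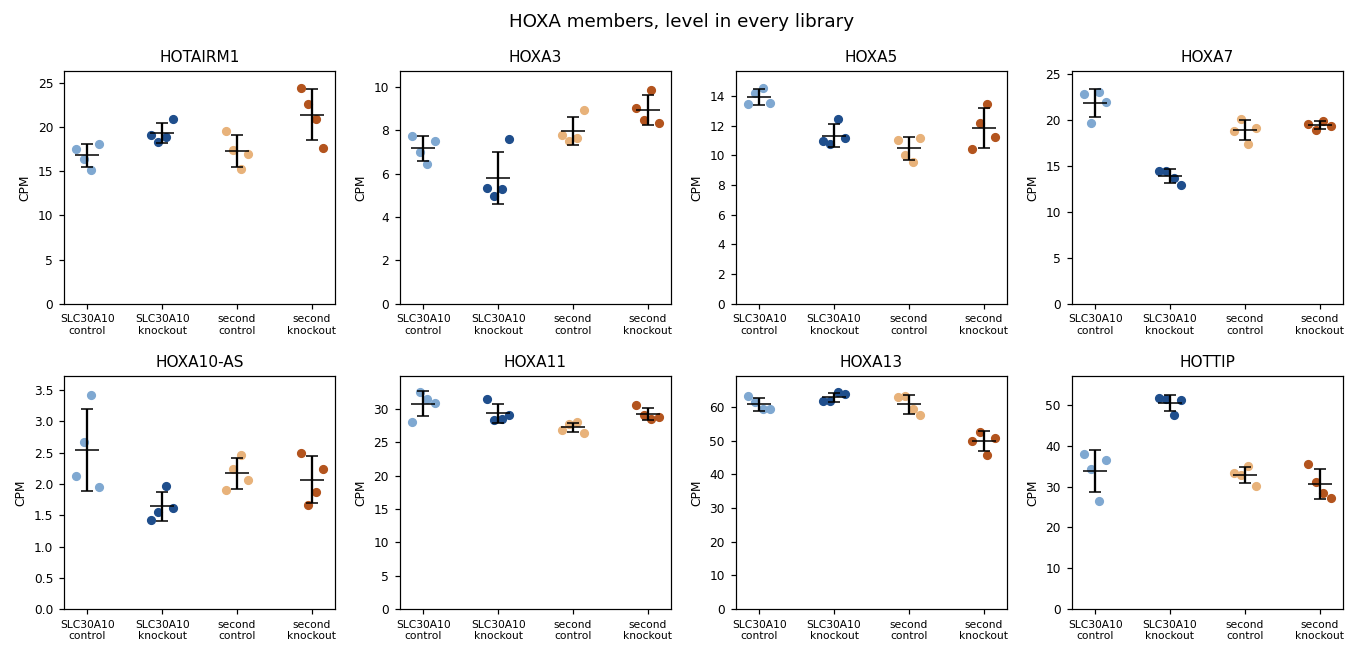
CPM of 8 HOXA members in each library, with bars for the mean and SD of 4 libraries. HOXA7 is lower and HOTTIP higher in the SLC30A10 knockout, and HOXA13 is lower in the second knockout.

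Whether the knockouts differed in their effect was tested as the SLC30A10 effect minus the second effect. It passed the threshold for 14 of 34 members, 7 positive and 7 negative, where 31.3% of all genes passed (edgeR quasi-likelihood). With at least a 2-fold difference 4 members passed, beside 5.51% of all genes. HOXD11 (adjusted p = 1.85e-06) and HOXD10 (adjusted p = 0.00362) fell further in the second knockout. For HOXD9 the difference was -0.32 ± 0.70 (SE, adjusted p = 0.768), so even a difference larger than this error could have been missed. HOXD-AS1 (-1.52 ± 0.21), HOXD3 (-1.12 ± 0.28), HOXA7 (-0.69 ± 0.10), HOXD8 (-0.60 ± 0.14), HOXA5 (-0.48 ± 0.12) and HOXA3 (-0.47 ± 0.16) had more negative effects in the SLC30A10 knockout. HOXB2 (0.70 ± 0.09), HOTTIP (0.68 ± 0.12), HOXA13 (0.33 ± 0.07), HOXB4 (0.31 ± 0.10) and HOXD13 (0.25 ± 0.08) had more positive ones. The HOXD13 difference was not past the threshold without SLC30A10 knockout replicate 2, second knockout replicate 2 or second control replicate 3 (adjusted p = 0.0657 at most). That of HOXB4 was lost without SLC30A10 control replicate 1 (adjusted p = 0.0535). HOXD4 (-0.35 ± 0.13, adjusted p = 0.0362) lost its call without any of 9 libraries, with adjusted p = 0.0989 without second knockout replicate 4. HOXA3 lost its call without any of 6 libraries, with adjusted p = 0.0692 without SLC30A10 knockout replicate 2.

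**Figure D5:**
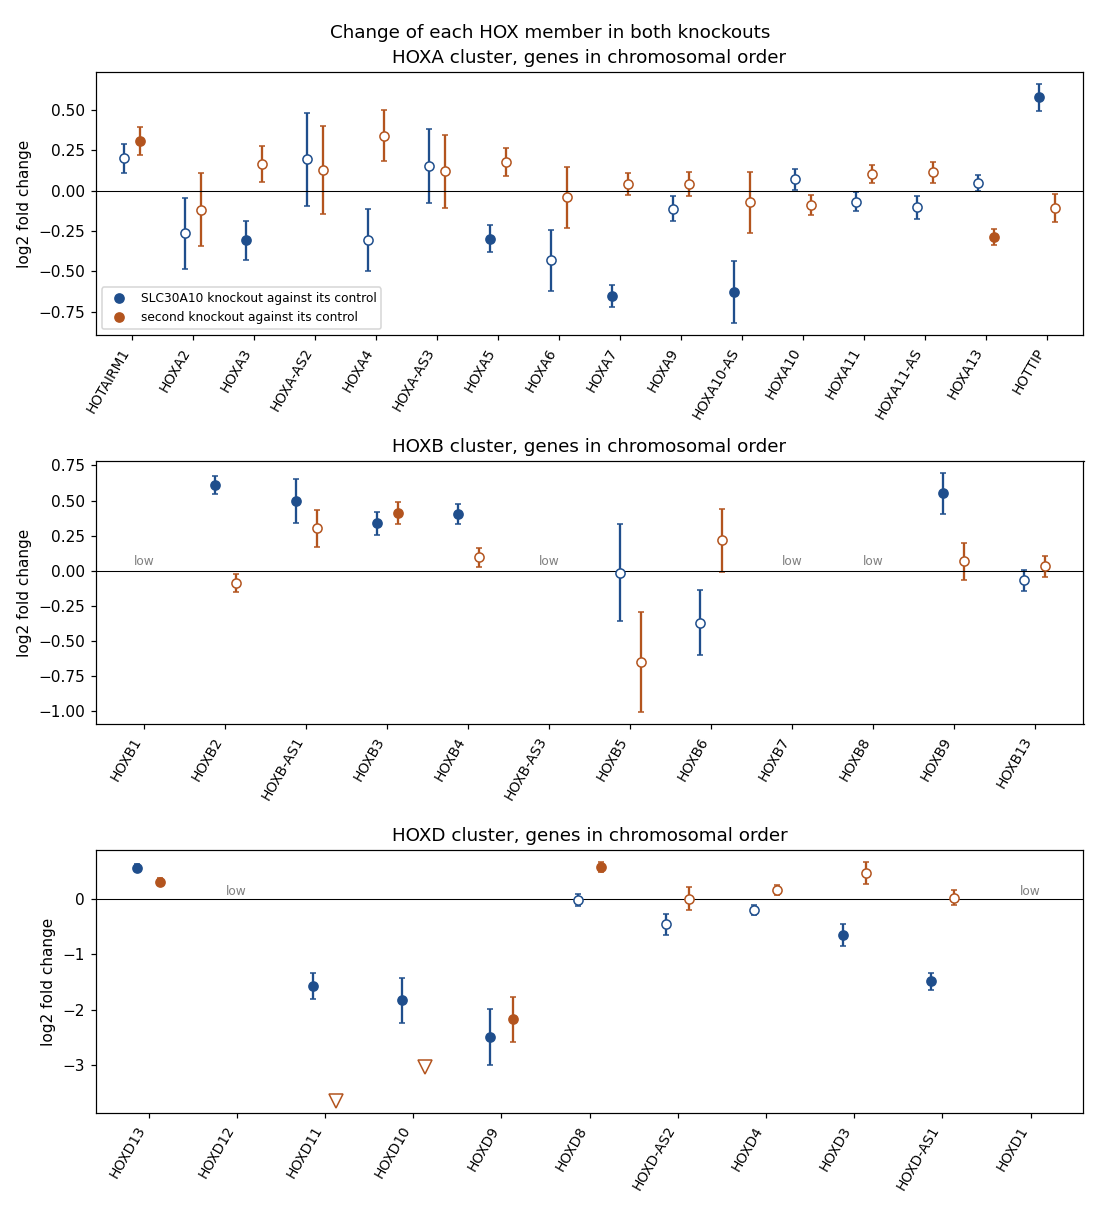
Log2 fold change of the members in both knockouts against their own controls, by cluster and in chromosomal order, with SE bars. Filled points passed the threshold, open triangles mark the lower bounds of HOXD11 and HOXD10 in the second knockout, and "low" marks genes that were not tested.

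The control sets differed from each other in 13 of 34 members, 5 higher and 8 lower in the SLC30A10 control, where 39.3% of all genes did. No member differed by 2-fold, beside 1.40% of all genes, and the groups did not overlap for 10 members, beside 36.3% of all genes. HOXD9, HOXD10 and HOXD11 were not called between them, with log2 differences of -0.48 (adjusted p = 0.238), -0.66 ± 0.28 (adjusted p = 0.0598) and -0.06 (adjusted p = 0.818). The HOXD10 difference did pass without SLC30A10 control replicate 2 (-0.85, adjusted p = 0.0316) or replicate 4 (-0.79, adjusted p = 0.0441) or without second control replicate 4 (-0.85, adjusted p = 0.0144), and with all libraries and no filter on low counts (-0.66, adjusted p = 0.0486). HOXD13 differed by 0.12 ± 0.06 (adjusted p = 0.0989) and passed without second control replicate 3 (0.17, adjusted p = 0.0416). HOXD8 (-0.34 ± 0.10) and HOXD-AS1 (0.38 ± 0.13) were called, the first losing its call without second control replicate 2 (adjusted p = 0.0626) and the second without SLC30A10 control replicate 2 (adjusted p = 0.121) or second control replicate 1 (adjusted p = 0.0646). In HOXA the called members included HOXA5 (0.41 ± 0.08), HOXA7 (0.21 ± 0.07), HOXA11 (0.18 ± 0.06), HOXA11-AS (-0.22 ± 0.07) and HOXA4 (-0.46 ± 0.17). HOXA4 was lost without any of 6 libraries (adjusted p up to 0.130), HOXA11 without SLC30A10 control replicate 2 (0.0553) or the filter on low counts (0.0521) and HOXA11-AS without SLC30A10 control replicate 1 (0.0523).

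The HOXC cluster, the fourth HOX cluster of the genome, was compared as the most similar set. In the SLC30A10 knockout 10 of 12 tested HOXC entries were called (83.3%, beside 41.4% of all genes). Of these 9 were higher, and the median log2 fold change was 1.11. HOXC11 (4.55 ± 0.18) and HOTAIR (4.66 ± 0.15) showed rises that no HOXA, HOXB or HOXD member matched in size. The highest rise among these was the 0.61 of HOXB2. In the second knockout 6 of 12 HOXC entries were called (50%, beside 13.7% of all genes), 4 higher and 2 lower, with a median of 0.33. HOXC11 and HOTAIR were the lower ones, and like HOXD11 they had 0 counts in all 4 libraries of that knockout (adjusted p = 0.000323 and 0.00187). Their second control was itself low, with 7, 8, 1 and 8 counts of HOXC11 and 2, 3, 3 and 3 of HOTAIR. The protein-coding neighbours of the clusters were read as the 5 nearest tested genes on each side. In the SLC30A10 knockout 2 of 10 were called around HOXA, 2 of 10 around HOXB and 5 of 10 around HOXD. In the second knockout 4, 2 and 3 of 10 were called. Over all genes the shares called were 41.4% and 13.7%. EVX1, the homeobox gene beside HOXA13 and HOTTIP, was lower in the second knockout (-0.91 ± 0.19, adjusted p = 0.000889). The control sets also differed for EVX1, at 3.17 CPM for SLC30A10 and 2.05 for the second, and the second knockout was at 1.09. CHN1, at chr2:174798809-175005381 on the HOXD13 side of HOXD, was higher in both (0.67 ± 0.08 and 0.71 ± 0.08). For CHN1 the control sets were apart too, at 71.6 and 52.2 CPM, with the SLC30A10 knockout at 114 and the second knockout at 85.45. The listed neighbours between CHN1 and HOXD did not rise with it. ATF2 was lower in the SLC30A10 knockout (-0.32 ± 0.05), ATP5G3 was lower in the second (-0.15 ± 0.04) and KIAA1715 was not called in either.

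Known regulators and partners of HOX genes were read from lists, beside the shares of 41.4% and 13.7% over all genes. Of 35 tested Polycomb genes 17 were called in the SLC30A10 knockout, 8 higher and 9 lower, and 3 in the second, with median log2 fold changes of 0.01 in both. EZH2, the methyltransferase of the PRC2 complex, fell from 135.0 to 98.9 CPM (-0.45 ± 0.04, adjusted p = 3.88e-09) in the SLC30A10 knockout and was not called in the second (0.10 ± 0.04). The second control, at 124.4 CPM, was below the SLC30A10 control (0.12 ± 0.04 between the control sets, past the threshold) and above the SLC30A10 knockout. PHC3 and SCML2 of the PRC1 class rose by 0.44 ± 0.04 and 0.41 ± 0.04. For PHC3 the control sets were themselves apart, at 56.7 CPM for SLC30A10 and 73.8 for the second, and the SLC30A10 knockout was at 77.1. For SCML2 the control sets did not differ past the threshold, at 57.1 and 60.2 CPM, and the knockout was at 76.0. Of 21 trithorax and activating factors 11 were called, 2 higher and 9 lower (median -0.10), and 3 were higher in the second (median 0.02). MLLT3, a partner of the super elongation complex, fell by 0.56 ± 0.09 in the SLC30A10 knockout and rose by 0.40 ± 0.09 in the second.

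Of the 11 TALE homeodomain genes, whose products bind DNA together with HOX proteins, 6 were called in the SLC30A10 knockout, 3 in each direction, and 2 in the second, both lower, with medians of 0.05 and -0.00. MEIS1 fell by 0.61 ± 0.09 (adjusted p = 1.73e-06) and MEIS3 rose by 0.83 ± 0.10 (adjusted p = 2.26e-07) in the SLC30A10 knockout. For MEIS3 the control sets also differed, at 13.3 and 17.2 CPM (-0.38 ± 0.11), and the SLC30A10 knockout was at 23.6. Retinoic acid genes numbered 9 of 17 (4 higher, median 0.03) and 4 of 17 (1 higher, median -0.05). CRABP1, a retinoic acid binding protein, rose by 0.61 ± 0.08 and 0.82 ± 0.08, while CRABP2 (0.37 ± 0.08 and -0.89 ± 0.08), a related binding protein, went in opposite directions. The control sets differed for CRABP1, at 13.8 CPM for SLC30A10 and 16.9 for the second, and the SLC30A10 knockout was at 21.0. For CRABP2 the control sets differed as well, at 19.35 CPM for SLC30A10 and 26.8 for the second, and the SLC30A10 knockout was at 25.1. Of 9 tested upstream and axial genes 5 and 4 were called, with medians of -0.00 and -0.22. CDX2, a caudal homeobox activator of HOX genes, rose in both, from 5.18 to 11.6 CPM (1.16 ± 0.11, adjusted p = 2.72e-09) and from 4.96 to 8.33 CPM (0.75 ± 0.12, adjusted p = 3.09e-05). GDF11, a signal of trunk-to-tail patterning, rose by 0.16 ± 0.04 in the first and fell by 0.38 ± 0.05 in the second. LIN28A, an RNA-binding protein of early embryonic cells, fell in both (log2 fold changes of -0.87 ± 0.13 and -3.89 ± 0.38). The control sets were themselves apart for LIN28A, at 13.2 and 2.60 CPM, and the SLC30A10 knockout, at 7.22 CPM, lay above the second control. Among 13 chromatin loop factors 8 were called in the SLC30A10 knockout, 4 in each direction (median -0.06). In the second 0 of 13 were called by edgeR (median -0.04) and 0 by DESeq2, with 5 at an unadjusted p under 0.05. CTCFL (2.76 ± 0.20) rose most in the SLC30A10 knockout, from a control at 2.79 CPM, where the second control was at 16.95 CPM.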

How the data were processed

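Poly-A selected RNA of 16 HAP1 libraries was sequenced as paired reads of 100 bases, per the labels. The authors deposited whole-number counts per gene symbol, made with tools that include HISAT2, featureCounts and DESeq2 on hg38 or GRCh38, per the submitters' processing notes. Their versions, the annotation and the use of strand are not given in the sources used here, so antisense and overlapping genes cannot be told apart. The gene deleted in the second knockout, 1 member and 1 listed regulator are not reported here, although they enter the counts.

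Counts were fitted in edgeR 4.0.16 (R 4.3.3) with all 16 libraries, a mean per group and no covariate, after the expression filter (minimum count 10, total 15; 15569 genes) and scaling by the trimmed mean of M-values. P-values of the quasi-likelihood tests were adjusted over all tested genes, with a threshold of 0.05. CPM values are means ± SD and log2 fold changes are ± SE. The common biological coefficient of variation was 0.0497. Members too low for the fit were given as counts, with two-sided exact permutation tests. Where every knockout library was at or under 3 counts, folds are lower bounds against 3 counts per library, which covers counting error only. Replicate pairs differed by a chi-square of 1.63 to 6.69 per degree of freedom, so none was treated as a repeat. The procedure was also run on simulated counts drawn with the common coefficient of variation for every gene. That setting is simpler than these data, and no result here rests on it. Lengths are unions of GENCODE v29 exons, and gene coordinates and upstream windows are from RefSeq, GRCh38.p14.

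The members, lists and tests were chosen with earlier results of these data known. A member was described in every library where it changed at least 2-fold past the threshold in a knockout or led its cluster in any group. Others were added after their values were seen. Regulators were named from the 3 genes of each list with the lowest adjusted p per knockout. Alternatives were other scalings, filters and thresholds, DESeq2 1.42.0, the replicate block, fits of only the libraries compared, pooled controls and leaving out each library.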

Additional observations from a re-analysis of the deposited data

Results flagged for a closer look

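The effect of the SLC30A10 knockout differed from that of the second knockout, by edgeR's test of the difference, for 14 members. The SLC30A10 effect minus the second effect, on the log2 scale, was -0.472 for HOXA3, -0.476 for HOXA5, -0.692 for HOXA7, -0.596 for HOXD8, -0.352 for HOXD4, -1.12 for HOXD3 and -1.52 for HOXD-AS1. It was 0.333 for HOXA13, 0.685 for HOTTIP, 0.698 for HOXB2, 0.306 for HOXB4 and 0.252 for HOXD13. For HOXD11 and HOXD10 the fitted values of 6.68 and 3.48 rest on 0 or 1 counts in the second knockout and are no measured sizes.

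In 10 of 131 groups of 4 libraries, 1 library lay far from the other 3, with a gap over the range above Dixon's critical value, where chance gives about 1 in 20, or 6.55. In the second control these were replicate 4 for HOXA-AS2 (ratio 0.979), replicate 1 for HOXB-AS1 (0.834) and replicate 3 for HOXD9 (0.841). In the SLC30A10 control they were replicate 1 for HOXA2 (0.857) and HOXA10 (0.866) and replicate 4 for HOXD11 (0.878). In the SLC30A10 knockout they were replicate 4 for HOXA3 (0.858, at 7.60 CPM where the median was 5.31) and replicate 3 for HOTTIP (0.893). In the second knockout replicate 4 stood out for both HOXB9 (0.848, at 21.7 CPM where the median was 14.0) and HOXB13 (0.902, at 21.0 CPM where the median was 17.7).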

How the results depend on the processing

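The falls of HOXD9, HOXD10 and HOXD11 in both knockouts, and of HOXD-AS1 after SLC30A10 deletion, held their direction and call under every alternative that could be computed for them. Leaving out single libraries gave 14 to 16 called members for the SLC30A10 knockout, 8 to 10 for the second, 11 to 16 for the difference and 11 to 15 between the control sets. A 2-fold requirement left 4, 3, 4 and 0 members (702, 358, 858 and 218 of all genes), and an adjusted p under 0.01 left 7 members and 4153 of all genes between the control sets, and 7 members and 1229 of all genes in the second knockout. Pooled controls gave 13 called members and 5341 of all genes in the second knockout. Pooling reversed the sign of these uncalled values: HOXA10 (-0.0041) and HOXA11 (0.01996) in the SLC30A10 comparison, and HOXA5 (-0.03), HOXA7 (-0.06), HOXB2 (0.1331), HOXD-AS1 (-0.165) and HOXD-AS2 (-0.18) for the second knockout. Single libraries moved uncalled values across 0: HOXD-AS1 in the second knockout ran from -0.05661 to 0.1006, the HOXD9 difference from -0.6587 to 0.0735, and between the control sets HOTAIRM1 from -0.08974 to 0.03353, HOXA13 from -0.01571 to 0.02781 and HOXD11 from -0.1437 to 0.07543. Without a low-count filter HOXA13 there was -0.001866. The cause of these moves was not tested. The labels number the replicates alike in each group, but same-numbered libraries did not deviate together (correlations of -0.0699 to 0.00360 and -0.0216 to 0.116 in the experiments, -0.103 to 0.110 between control sets), and the replicate block gave 17, 9, 16 and 13 members. Members under about 3 counts per library were limited by depth.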
